A study of Mus musculus with 8 samples.

Results

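Transcripts of 10 genes were followed in mouse distal colon: the guanylate-binding proteins Gbp2, Gbp3, Gbp5 and Gbp7, the immunity-related GTPases Igtp, Irgm1, Irgm2, Iigp1 and Ifi47, and the transcription factor Irf1. They were taken by symbol from a table of 55418 gene symbols, and all 10 were among the 17522 genes that passed the filter on low counts. Total RNA came from 8 C57BL/6 mice aged 8 to 10 weeks, in 4 groups of 2 that the labels call replicates. The groups were NAIL-ΔNFκB mice given dextran sulfate sodium (ΔNFκB DSS), wild-type mice given it (WT DSS), NAIL-ΔNFκB mice without it (ΔNFκB untreated) and wild-type mice without it (WT untreated). Dextran sulfate sodium (DSS) is a polymer that injures the colon epithelium and causes colitis; it was given at 3% for 4 days, and 4 days of plain water came after it. NAIL is a long noncoding RNA locus that the study's title links to p38 activation and NFκB in inflammation, and the labels do not state which of its bases differ in the ΔNFκB line.

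Guanylate-binding proteins and immunity-related GTPases are large GTPases that cells make in response to interferon, above all interferon gamma, and in mice they act against bacteria and parasites that live inside vacuoles. Among the immunity-related GTPases, Irgm1, Irgm2 and Igtp (also called Irgm3) are regulators that sit on the cell's own membranes and hold the effectors inactive there, whereas Iigp1 and Ifi47 belong to the effectors that gather on pathogen vacuoles. Guanylate-binding proteins collect on such vacuoles and on bacteria, and they promote inflammasome activation. Irf1 is induced by interferon gamma and through NFκB, binds interferon-stimulated response elements, and is needed in mouse cells for full induction of Gbp genes.

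The libraries held 9229861 to 10523079 counts after DSS and 12553588 to 16935961 counts without it, so libraries were shallower after DSS, although all 9 GTPase genes had more counts in each DSS library than in the untreated libraries of the same genotype. Pearson r of log2 values between replicates was 0.974 to 0.981. The epithelial markers summed to 8392 to 21280 CPM (normalised read count, scaled to library size) in every library of this colon tissue. Y-linked transcripts summed to 219 to 240 CPM in both ΔNFκB untreated mice and in WT untreated replicate 2, and to at most 0.209 CPM in the other 5 libraries, so all 4 DSS mice were female and both ΔNFκB untreated mice were male. No label names the mouse gene of NAIL; Gm16685, which general knowledge gives for it, had 55.1 and 86 counts in ΔNFκB DSS libraries and 57 and 126 in WT DSS libraries. Without DSS its counts were 3 and 4 for ΔNFκB and 3 and 20 for WT libraries. It was thus counted in both genotypes, and these values do not check the genotype labels.

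The 4 Gbp genes lie on the plus strand within 144 kb of chromosome 3 in GRCm38 (GENCODE M21), in the order Gbp5 (chr3:142493978-142522344), Gbp7 (chr3:142530342-142550149), Gbp3 (chr3:142560026-142573209) and Gbp2 (chr3:142620602-142638008). Chromosome 11 carries 5 of the 10 genes: Irgm1 (chr11:48861968-48871683, minus strand), Ifi47 (chr11:49076587-49096974), Irf1 (chr11:53770014-53778374), Igtp (chr11:58199556-58207591) and Irgm2 (chr11:58199618-58222782), the last 4 on the plus strand. Iigp1 lies on another chromosome. All 10 are annotated as protein-coding. Exon bases are shared with another gene in 6 of them: Gbp7 shares 11.35% with Gm43802, Ifi47 8.78% with Gm12188 and Olfr56, Irf1 3.40% with the antisense Gm17334 and Gbp2 24 bases with Mir6381, while Igtp and Irgm2 share 162 bases with each other (8.01% and 4.39% of their exons). Their counts, and those of the 8 genes with a value that was not whole in some library, are uncertain to that extent, and the strand setting of the counting is not given in the sources used here.

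The 300 bases around the transcription start, 250 before it and 50 from it on, were taken from RefSeq (GRCm38.p6). This was done for 9 of the 10 genes, all but Iigp1, and 5 of them are shown. Gbp2 and Gbp5 differed in opposite directions between genotypes after DSS, the annotated spans of Igtp and Irgm2 overlap, and Irf1 moved least with DSS. The Gbp5 and Irgm2 windows lie wholly inside the GENCODE spans given above, so each covers a RefSeq start other than the gene's first base. Capitals mark matches, on either strand, to the interferon-stimulated response element GAAANNGAAA, the gamma-activated sequence TTCNNNGAA or the NFκB motif GGGANTTTCC.
Gbp2 (chr3:142620413-142620712, plus strand): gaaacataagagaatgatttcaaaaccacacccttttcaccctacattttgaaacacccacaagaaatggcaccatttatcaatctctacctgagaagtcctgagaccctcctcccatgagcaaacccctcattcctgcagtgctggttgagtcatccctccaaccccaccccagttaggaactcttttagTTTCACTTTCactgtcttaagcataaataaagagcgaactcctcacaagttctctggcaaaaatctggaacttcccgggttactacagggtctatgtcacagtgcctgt
Gbp5 (chr3:142496684-142496983, plus strand): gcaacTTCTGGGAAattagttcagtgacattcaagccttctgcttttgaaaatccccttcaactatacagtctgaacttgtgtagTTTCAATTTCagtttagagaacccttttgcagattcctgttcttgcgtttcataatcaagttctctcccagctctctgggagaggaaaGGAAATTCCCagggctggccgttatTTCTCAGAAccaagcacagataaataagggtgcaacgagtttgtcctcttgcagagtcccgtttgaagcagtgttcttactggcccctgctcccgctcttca
Igtp (chr11:58199306-58199605, plus strand): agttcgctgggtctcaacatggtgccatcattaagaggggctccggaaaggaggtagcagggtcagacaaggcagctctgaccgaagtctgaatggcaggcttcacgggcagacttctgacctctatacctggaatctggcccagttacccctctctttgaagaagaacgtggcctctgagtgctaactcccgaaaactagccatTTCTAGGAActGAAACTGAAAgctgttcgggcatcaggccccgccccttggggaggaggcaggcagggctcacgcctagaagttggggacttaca
Irgm2 (chr11:58214727-58215026, plus strand): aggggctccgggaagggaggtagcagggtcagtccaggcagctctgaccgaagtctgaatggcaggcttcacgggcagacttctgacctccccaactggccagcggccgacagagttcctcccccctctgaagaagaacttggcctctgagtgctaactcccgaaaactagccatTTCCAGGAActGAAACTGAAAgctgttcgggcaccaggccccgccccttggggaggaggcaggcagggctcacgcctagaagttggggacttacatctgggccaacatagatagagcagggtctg
Irf1 (chr11:53769764-53770063, plus strand): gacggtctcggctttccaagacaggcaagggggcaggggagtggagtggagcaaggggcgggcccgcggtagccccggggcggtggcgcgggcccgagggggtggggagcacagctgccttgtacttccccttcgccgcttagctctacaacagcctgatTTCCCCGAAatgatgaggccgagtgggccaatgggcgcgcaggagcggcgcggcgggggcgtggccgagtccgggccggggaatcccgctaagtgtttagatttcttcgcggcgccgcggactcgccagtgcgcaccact

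Letters of the interferon-stimulated response element were present in 7 of the 9 genes, against 3.99% of 27025 genes with a window. In Gbp2 they began 59 bases before the start (TTTCACTTTC), in Igtp 34 bases before (GAAACTGAAA) and in Irgm2 64 bases before (GAAACTGAAA), while Gbp5 had them 165 bases before (TTTCAATTTC). Gamma-activated sequence letters were present in 5 of the 9 (Gbp5, Gbp7, Igtp, Irgm2 and Irf1), against 9.55% of genes. Gbp5 held 2 of them, TTCTGGGAA 245 bases and TTCTCAGAA 52 bases before the start. The letters GGGANTTTCC were found in Gbp5, 77 bases before the start (GGAAATTCCC), and in no window of the other 8 genes, against 0.466% of genes. They are a strict form of the NFκB motif. Looser forms were not searched for, so the windows of the other genes may hold such sites. The windows of Igtp and Irgm2 share a run of 61 identical bases that begins at base 240 of Igtp and base 210 of Irgm2, downstream of the matches in both. It reaches the end of the Igtp window, so 61 is a minimum. Irf1 had a gamma-activated match (TTCCCCGAA, 90 bases before the start) and no match to the response element letters in its windows. Ifi47 had no match to any of these letters. Matches are letters only and no binding was measured.

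With DSS, all 10 genes were higher in ΔNFκB colon than in untreated ΔNFκB colon, and the effector Iigp1 (chr18:60376027-60392634, plus strand) moved farthest. Iigp1 was at 158 and 393 CPM in ΔNFκB DSS libraries, against 5.21 and 4.72 CPM in ΔNFκB untreated libraries. Gbp2, the most abundant of the 4 Gbp genes per length, was at 226 and 392 CPM after DSS, against 24.2 and 26.3 CPM untreated. Irf1 was at 223 and 306 CPM after DSS, against 84.4 and 132 CPM untreated. Both DSS libraries lay above both untreated libraries for each of the 10 genes, a pattern seen in 33.8% of all genes tested. By edgeR's quasi-likelihood test with Benjamini-Hochberg adjustment over all genes, 16.2% of all genes were called higher and 19.2% lower with DSS in ΔNFκB mice. The log2 fold change was 5.79 ± 0.62 (SE) for Iigp1 (55.4-fold, adjusted p 0.000465), 3.61 ± 0.30 for Gbp2 (12.2-fold, adjusted p 0.000188) and 1.29 ± 0.28 for Irf1 (2.45-fold, adjusted p 0.00867). The other regulators and effectors fell between these: Igtp rose by 4.11 ± 0.47, Ifi47 by 4.04 ± 0.52, Irgm2 by 3.05 ± 0.29, Gbp5 by 3.03 ± 0.32, Gbp3 by 2.72 ± 0.36, Irgm1 by 2.53 ± 0.32 and Gbp7 by 2.34 ± 0.35 on the log2 scale, with adjusted p between 0.000319 and 0.00185. The median over the 10 genes was 3.04, against -0.04 over all genes tested. In whole tissue, more cells of a type and more RNA per cell cannot be told apart.

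Sex and DSS cannot be told apart within the ΔNFκB mice. In a fit with a sex term, whose estimate comes from the WT untreated mice alone, all 10 genes kept an adjusted p below 0.05. Irf1 lost its call without ΔNFκB untreated replicate 1 (1.02, adjusted p 0.0538) and without ΔNFκB DSS replicate 2 (1.07, adjusted p 0.0622). The calls of the other 9 held when any 1 library was left out.

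**Figure D1:**
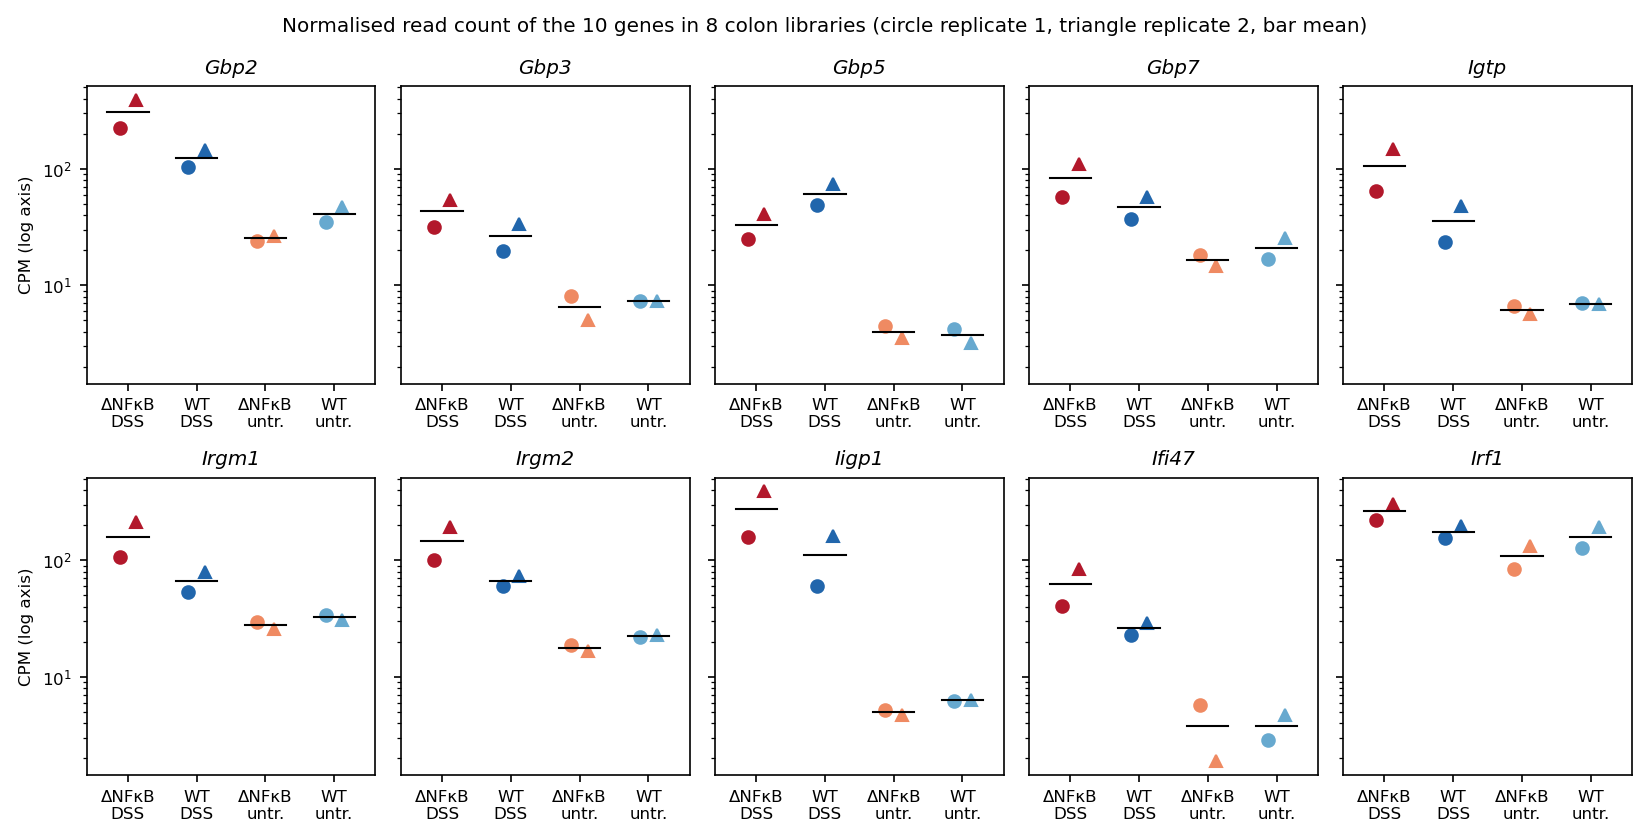
Normalised read count (CPM, log axis) of each of the 10 genes in the 8 libraries, with a circle for replicate 1, a triangle for replicate 2 and a bar for the mean of the 2. After DSS replicate 2 is the higher of the pair in every panel, and Gbp5 is the gene whose WT DSS values lie above its ΔNFκB DSS values.

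In WT colon 9 of the 10 genes were higher with DSS, and Irf1 did not pass the test; 17.2% of all genes were called higher and 18.8% lower there. Gbp5, which promotes inflammasome assembly in mouse macrophages, was at 49.0 and 73.7 CPM in WT DSS libraries, against 4.23 and 3.22 CPM in WT untreated libraries. Iigp1 was at 60.5 and 162 CPM after DSS, against 6.23 and 6.30 CPM untreated. Irf1 was at 155 and 198 CPM after DSS, against 127 and 193 CPM untreated. Irf1 values overlapped between the groups, whereas those of the other 9 genes did not (36.0% of all genes tested lay wholly higher). Gbp5 rose by 4.05 ± 0.32 on the log2 scale (16.5-fold, edgeR adjusted p 0.000167) and Iigp1 by 4.15 ± 0.58 (17.7-fold, adjusted p 0.00155). Irf1 differed by 0.14 ± 0.27 (adjusted p 0.711), and its sign changed when WT untreated replicate 1 (-0.10) or WT DSS replicate 2 (-0.05) was left out. Increases of the remaining genes were smaller: 2.76 ± 0.50 for Ifi47, 2.35 ± 0.45 for Igtp, 1.86 ± 0.35 for Gbp3, 1.6 ± 0.28 for Gbp2, 1.58 ± 0.28 for Irgm2, 1.16 ± 0.34 for Gbp7 and 1.04 ± 0.31 for Irgm1, with adjusted p between 0.00376 and 0.0318. The median over the 10 genes was 1.73, against 0.00 over all genes tested.

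The WT calls of Gbp7 and Irgm1 did not hold without certain WT libraries, and each such fit leaves 1 mouse in a group. The Irgm1 estimate, 1.04 with all libraries, stayed near that value without either WT untreated library. Gbp7 fell below the threshold without WT untreated replicate 1 (0.93, adjusted p 0.122) and without WT DSS replicate 2 (0.80, adjusted p 0.184). Irgm1 did so without WT untreated replicate 1 (1.14, adjusted p 0.0728), WT untreated replicate 2 (1.0, adjusted p 0.115) or WT DSS replicate 2 (0.73, adjusted p 0.186), and with a sex term (0.97, adjusted p 0.119).

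After DSS, ΔNFκB colon held more Gbp2, Igtp, Irgm1 and Irgm2 RNA than WT colon and less Gbp5 RNA. In this comparison 8.32% of all genes were called higher and 11.7% lower. Gbp2 was at 226 and 392 CPM in ΔNFκB DSS, against 104 and 144 CPM in WT DSS libraries. Igtp was at 64.4 and 149 CPM in ΔNFκB DSS, against 23.6 and 47.6 CPM in WT DSS libraries. Gbp5 was at 25.1 and 40.6 CPM in ΔNFκB DSS, against 49.0 and 73.7 CPM in WT DSS libraries. For each of these genes the pairs did not overlap, and Gbp5 alone of the 10 had the lower pair in ΔNFκB mice. The regulator Irgm1 was at 107 and 212 CPM in ΔNFκB DSS, against 53.7 and 78.9 CPM in WT DSS libraries, and Irgm2 at 99.99 and 194 CPM, against 59.6 and 73.8 CPM. The log2 fold change was 1.32 ± 0.27 for Gbp2 (adjusted p 0.0145), 1.58 ± 0.41 for Igtp (adjusted p 0.030), 1.27 ± 0.30 for Irgm1 (adjusted p 0.0243), 1.14 ± 0.27 for Irgm2 (adjusted p 0.0231) and -0.90 ± 0.27 for Gbp5 (adjusted p 0.0496).

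The other 5 genes did not pass the test between genotypes after DSS. Iigp1 was at 158 and 393 CPM in ΔNFκB DSS, against 60.5 and 162 CPM in WT DSS libraries, so its pairs overlapped. Those of Gbp3 (31.9 and 54.4 CPM in ΔNFκB DSS, against 19.5 and 33.6 CPM in WT DSS) and Gbp7 (57.5 and 109 CPM, against 37.0 and 57.7 CPM) overlapped too. Ifi47 (40.6 and 84.6 CPM in ΔNFκB DSS, against 22.9 and 29.0 CPM in WT DSS) and Irf1 (223 and 306 CPM, against 155 and 198 CPM) had pairs that did not overlap. Their log2 fold changes were 1.31 ± 0.48 for Iigp1, 1.27 ± 0.44 for Ifi47, 0.81 ± 0.33 for Gbp7, 0.70 ± 0.33 for Gbp3 and 0.58 ± 0.27 for Irf1, with adjusted p of 0.0901, 0.0757, 0.119, 0.165 and 0.165. Over the 10 genes the median was 1.20, against 0.03 over all genes. Pairs lay wholly higher in ΔNFκB mice for 35.5% of all genes and wholly lower for 32.6%, so separate pairs alone were common.

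Calls between genotypes after DSS changed with single libraries and with the samples fitted. Over all genes tested, too, fewer were called when any DSS library was left out, which leaves 1 mouse in its group. The number of the 10 genes called was 5 with all libraries, 0 without ΔNFκB DSS replicate 2, 1 without WT DSS replicate 1, 2 without WT DSS replicate 2 and 3 without either ΔNFκB untreated library. Without ΔNFκB DSS replicate 2 the log2 fold change was 0.84 for Gbp2, 0.82 for Igtp, 0.65 for Irgm1 and 0.55 for Irgm2 (adjusted p 0.114, 0.243, 0.175 and 0.138). Gbp5 kept its negative sign in every setting tried, at -0.57 without WT DSS replicate 2, -0.58 without ΔNFκB DSS replicate 1 and -1.32 without ΔNFκB DSS replicate 2 (adjusted p 0.297, 0.224 and 0.0713), and it missed the threshold narrowly with RLE scaling factors (-0.91, adjusted p 0.0505). Neither Gbp5 nor Igtp passed without either ΔNFκB untreated library (Gbp5 -0.94 in both cases, adjusted p 0.0577 and 0.0588; Igtp 1.54 in both, adjusted p 0.0504 and 0.0510). In a fit of only the 2 DSS groups Igtp missed the threshold (1.52, adjusted p 0.0557) and Ifi47 passed it (1.21, adjusted p 0.0433).

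Cell-type markers moved in the same comparison, in which 8.32% of all genes were called higher and 11.7% lower in ΔNFκB mice. After DSS the 8 neutrophil markers summed to 148 to 197 CPM in ΔNFκB and 497 to 636 CPM in WT mice, and 7 of the 8 were lower in ΔNFκB mice. Much of these sums was Ly6g, whose counts were also high without DSS. Without Ly6g they were 75.7 to 76.7 CPM in ΔNFκB DSS and 296 to 390 CPM in WT DSS libraries. Endothelial markers summed to 27.5 to 38.4 CPM in ΔNFκB DSS and 123 to 162 CPM in WT DSS libraries, with 5 of 6 lower. Epithelial markers summed to 13722 to 14583 CPM in ΔNFκB DSS and 8392 to 8760 CPM in WT DSS libraries, with 5 of 10 higher and 1 lower. The 10 macrophage and monocyte markers summed to 183 to 192 CPM in ΔNFκB DSS and 266 to 294 CPM in WT DSS libraries, with 3 lower. The T and NK cell markers summed to 21.3 to 24.1 CPM in ΔNFκB DSS and 25.8 to 32.0 CPM in WT DSS libraries, and none of the 9 tested was called. No marker in these lists was at 0 in all libraries, and the part of these shifts in the GTPase values was not tested.

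The relation of Gbp5 to Gbp2 was looked at after their values were seen. Gbp5 had 0.111 and 0.104 counts for each Gbp2 count in ΔNFκB DSS libraries and 0.473 and 0.512 in WT DSS libraries. The ratio was 0.186 and 0.133 in ΔNFκB untreated and 0.122 and 0.0686 in WT untreated libraries. Both WT DSS libraries thus stood above the other 6, which lay between 0.0686 and 0.186. Per kilobase of exon, Gbp5 was 3.33% and 3.09% of the 4 Gbp genes' RNA in ΔNFκB DSS, against 12.1% and 12.5% in WT DSS libraries. The 2 libraries of either DSS group gave close ratios although the CPM of each gene differed between them, whereas those of either untreated group lay farther apart.

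Without DSS none of the 10 genes passed the test between genotypes, where 0.388% of all genes were called in either direction. By DESeq2 and by limma-voom the count was also 0. The smallest unadjusted edgeR p of the 10 was 0.0381, for Gbp2. Gbp2 was at 24.2 and 26.3 CPM in ΔNFκB untreated, against 34.6 and 46.9 CPM in WT untreated libraries, pairs that did not overlap (-0.69 ± 0.28, edgeR adjusted p 0.285); of all genes, 22.7% had a wholly lower and 22.5% a wholly higher ΔNFκB pair. Irf1 was at 84.4 and 132 CPM in ΔNFκB untreated, against 127 and 193 CPM in WT untreated libraries, which overlapped (-0.57 ± 0.28, adjusted p 0.352). Values of the other 8 genes differed by -0.36 to 0.11 on the log2 scale. With Gbp2, 5 of the 10 genes had separate pairs. Igtp, Irgm1, Irgm2 and Iigp1 were the others, each with the lower pair in ΔNFκB mice. The lowest counts of the set were here: Ifi47 had 71.5 and 23 counts in ΔNFκB untreated and 36 and 70 in WT untreated libraries, and its difference of -0.01 ± 0.55 changed sign with the library left out. Both ΔNFκB mice in this comparison were male, against 1 of the 2 WT mice.

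The difference between the DSS responses of the genotypes passed the test for Gbp2, Irgm1 and Irgm2, each of which responded more in ΔNFκB mice; 8.63% of all genes were called in that direction and 9.07% in the other. The response of Gbp2 was larger by 2.01 ± 0.39 on the log2 scale (edgeR adjusted p 0.0156), of Irgm1 by 1.49 ± 0.43 (adjusted p 0.0488) and of Irgm2 by 1.47 ± 0.39 (adjusted p 0.0378). Igtp (1.76 ± 0.63, adjusted p 0.0867), Iigp1 (1.64 ± 0.79, adjusted p 0.178), Ifi47 (1.28 ± 0.71, adjusted p 0.231), Gbp7 (1.18 ± 0.48, adjusted p 0.123), Irf1 (1.15 ± 0.39, adjusted p 0.0746) and Gbp3 (0.86 ± 0.49, adjusted p 0.248) did not pass it. Gbp5 was the gene with a negative difference, -1.01 ± 0.44 (adjusted p 0.142). This contrast uses the same 8 libraries as the comparisons above and is not independent of them. Over the 10 genes the median was 1.38, against -0.05 over all genes.

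The Gbp2 difference was lost without ΔNFκB DSS replicate 2 (1.56, adjusted p 0.0550) and without ΔNFκB untreated replicate 1 (1.94, adjusted p 0.0613) and held when any of the other 6 libraries was left out. Irgm1 was lost when any library other than ΔNFκB DSS replicate 1 was left out (0.91 to 1.81), and so was Irgm2 (0.91 to 1.64). With a sex term the difference was 1.42 for Irgm1 (adjusted p 0.0798) and 1.49 for Irgm2 (adjusted p 0.0531), and Irf1 passed at 1.42 (adjusted p 0.0339). By limma-voom neither Irgm1 (1.43, adjusted p 0.0668) nor Irgm2 (1.40, adjusted p 0.0604) passed, and Irgm1 did not without genes of antigen receptors, mitochondria and ribosomal RNA (1.46, adjusted p 0.0512). Irf1 also passed without WT untreated replicate 1 (1.41, adjusted p 0.0378) and Igtp without ΔNFκB DSS replicate 1 (2.26, adjusted p 0.0394).

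**Figure D2:**
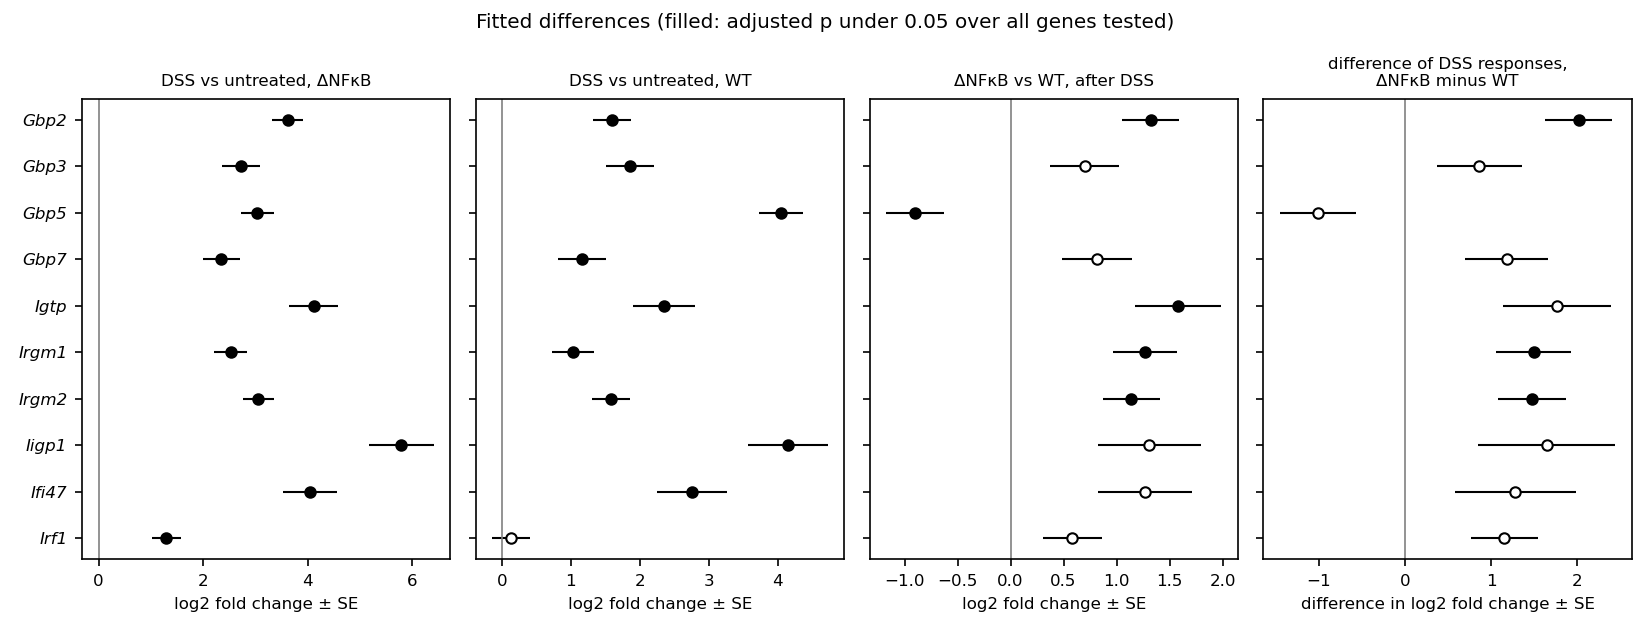
Log2 fold changes (points) with their standard errors (bars) for the 10 genes in 4 comparisons, filled where the adjusted p over all genes tested was below 0.05. In the ΔNFκB DSS response all 10 points are filled and positive, and in the panel of ΔNFκB against WT after DSS Gbp5 sits at -0.90 while the other 9 genes lie between 0.58 and 1.58.

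**Figure D3:**
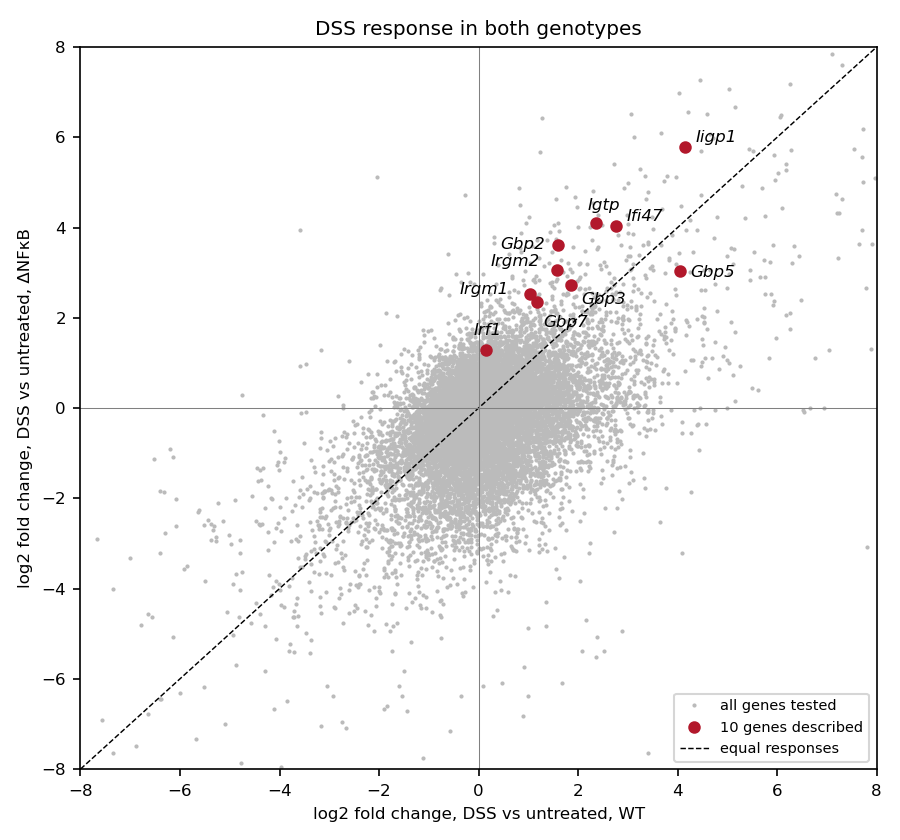
Log2 fold change with DSS in ΔNFκB mice (vertical axis) against that in WT mice (horizontal axis) for all genes tested (grey) and the 10 genes (red), with a dashed line of equal responses. The axes end at 8 in either direction and 44 genes lie outside them. Gbp5 lies below the line of equal responses and the other 9 genes lie above it.

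Levels per length, as CPM per kilobase of exon, put Irf1 and Gbp2 at the top in every group. Gbp2 was at 123 ± 46.5 CPM per kb in ΔNFκB DSS, 49.2 ± 11.3 in WT DSS, 10.0 ± 0.58 in ΔNFκB untreated and 16.2 ± 3.46 in WT untreated mice (mean ± SD, n = 2). Irf1 was at 66.5 ± 14.9, 44.4 ± 7.53, 27.2 ± 8.40 and 40.2 ± 11.7 CPM per kb in the same order of groups. Gbp2 was above Irf1 in both ΔNFκB DSS libraries and below it in all 4 untreated libraries, and their ranges overlapped in WT DSS mice. In ΔNFκB DSS mice the next levels were Igtp 52.8, Iigp1 47.3, Irgm2 39.8, Irgm1 27.5, Ifi47 25.3, Gbp7 14.8 and Gbp3 13.2 CPM per kb, and neighbours in that order overlapped. Gbp5, at 4.95 ± 1.65 CPM per kb, stood below all of them in ΔNFκB DSS mice, whereas in WT DSS mice its level of 9.24 ± 2.64 overlapped those of its neighbours in the order, Ifi47 (10.5) and Gbp7 (8.43). Without DSS Gbp5 was the lowest of the 10 in both genotypes, at 0.60 in ΔNFκB and 0.56 CPM per kb in WT mice, and Iigp1 was next above it at 0.85 and 1.08.

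The balance between regulators and effectors of the immunity-related family differed between DSS and untreated libraries in both genotypes. Irgm1, Irgm2 and Igtp made up 64.0% and 61.5% of the 5 immunity-related genes per kilobase in ΔNFκB DSS libraries and 65.3% and 59.1% in WT DSS libraries. Their share was 80.8% and 88.2% in ΔNFκB untreated and 87.2% and 83.3% in WT untreated libraries. The 4 DSS libraries lay below the 4 untreated ones with no separation by genotype. Iigp1 had 1.48 and 1.85 counts for each Irgm1 count in ΔNFκB DSS and 1.13 and 2.05 in WT DSS libraries, against 0.175 and 0.185 in ΔNFκB untreated and 0.184 and 0.205 in WT untreated libraries. No test was run on these shares.

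The 9 GTPase genes together summed to 810 and 1629 CPM in ΔNFκB DSS, 429 and 700.0 CPM in WT DSS libraries, 121 and 104 CPM in untreated ΔNFκB and 135 and 154 CPM in untreated WT libraries. The 2 mice of either DSS group lay far apart. The lower ΔNFκB DSS library was still above the higher WT DSS library, a pattern that 35.5% of all genes tested showed singly. Within the sum the pairs of Iigp1, Gbp3 and Gbp7 overlapped, and Gbp5 went the other way. Replicate 2 was above replicate 1 for all 10 genes in ΔNFκB DSS mice, by 1.38 to 2.49 times, and for all 10 in WT DSS mice, by 1.24 to 2.67 times. Over all genes tested, 52.7% and 46.7% were above 1 in those pairs. Without DSS the ratio was above 1 for 2 of the 10 genes in ΔNFκB and 7 of 10 in WT mice. The 10 genes thus moved together between mice of a DSS group.

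That common movement also showed across groups. Over the 8 libraries, which share the DSS contrast, Pearson r between each gene and the mean of the other 9 (standardized log2 CPM) was 0.971 to 0.995 for 8 genes, and was lower for Gbp5 (0.859) and Irf1 (0.809). Among 12477 other genes with a mean log2 CPM above 1, those most alike to the mean of the 10 included Ecscr (r = 0.996), Nus1 (0.993), Slc28a3 (0.987) and Sidt1 (0.987). Nus1 encodes a subunit of the dolichol-synthesizing prenyltransferase and Slc28a3 a nucleoside transporter. With so many candidates and 8 libraries this is a description only.

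Upstream of these genes, interferon gamma RNA was scarce. Ifng had 6 and 17 counts in ΔNFκB DSS, 2 and 8 in WT DSS and 0 in all 4 untreated libraries, and it did not pass the low-count filter. The pooled value of the 2 mice was 9.84 times a floor of 3 counts summed over the untreated group in ΔNFκB DSS. In WT DSS it was 4.30 times that floor. The floor covers counting error in the untreated group only. It covers neither the counting error of the 23 and 10 pooled counts after DSS nor the spread between mice.

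Of the 9 genes for interferon receptors and their JAK-STAT signalling, 3 were higher and 1 lower with DSS in ΔNFκB mice (16.2% and 19.2% of all genes), and 4 were higher and 0 lower in WT mice (17.2% and 18.8% of all genes). Stat2, which carries type I interferon signals to the nucleus, rose by 2.00 ± 0.20 in ΔNFκB and 0.98 ± 0.19 in WT mice (adjusted p 0.000353 and 0.00654), the WT call being lost without WT DSS replicate 2 (0.81). Socs1, which blocks signalling from interferon receptors, was at 32.6 and 46.4 CPM in ΔNFκB DSS, 14.5 and 22.4 in WT DSS libraries, 1.5 and 2.03 in untreated ΔNFκB and 0.798 and 1.34 CPM in untreated WT libraries. Its increase was 4.48 ± 0.34 in ΔNFκB and 4.08 ± 0.36 in WT mice (adjusted p 0.000153 and 0.000226), a difference of 0.40 ± 0.51 (adjusted p 0.607). Irf2, which competes with Irf1 for the same DNA element, was at 67.6 and 72.5 CPM in ΔNFκB DSS, 62.1 and 72.2 in WT DSS libraries, 85.6 and 97.0 in untreated ΔNFκB and 86.1 and 77.7 CPM in untreated WT libraries. Its differences with DSS were -0.38 ± 0.12 in ΔNFκB (adjusted p 0.0421, lost when any 1 library was left out) and -0.29 ± 0.12 in WT mice (adjusted p 0.101).

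Other interferon-inducible GTPases followed the 10 genes with DSS. Of 21 tested, 18 were higher and 0 lower in ΔNFκB mice and 14 higher and 0 lower in WT mice, with medians of 3.45 and 1.94; of all genes 16.2% were higher in ΔNFκB and 17.2% in WT mice. Gbp4 rose by 3.62 ± 0.40 in ΔNFκB and 3.66 ± 0.40 in WT mice (adjusted p 0.000526 and 0.000550). Gbp9 rose by 1.39 ± 0.27 in ΔNFκB and 2.28 ± 0.28 in WT mice (adjusted p 0.00550 and 0.000859). After DSS 5 of the 21 were higher and 0 lower in ΔNFκB than in WT mice (8.32% of all genes were higher), and 3 responded more in ΔNFκB mice (8.63% of all genes). Gbp2b, another member of the chromosome 3 cluster, was higher in ΔNFκB than in WT mice after DSS (38 and 57 counts in ΔNFκB DSS, against 3 and 3 counts in WT DSS libraries, 4.06 ± 0.61, adjusted p 0.00516), a call lost without ΔNFκB DSS replicate 2 (3.71, adjusted p 0.0519). Members of this family share long stretches of sequence, so reads may be divided between copies in ways the sources used here do not state.

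Among 13 known targets of Irf1, 11 were higher and 1 lower with DSS in ΔNFκB mice (16.2% and 19.2% of all genes), and 11 were higher and 2 lower in WT mice (17.2% and 18.8% of all genes). Irf1 itself passed the test in ΔNFκB mice and not in WT mice (difference 1.15, adjusted p 0.0746). Tap1, a transporter that loads peptides for MHC class I, rose by 3.16 ± 0.25 in ΔNFκB and 2.43 ± 0.24 in WT mice (adjusted p 0.000159 and 0.000370). The tryptophan-degrading enzyme Ido1 rose by 8.18 ± 0.64 in ΔNFκB and 5.77 ± 0.60 in WT mice (adjusted p 0.000164 and 0.000442). The immunoproteasome subunit Psmb9 was higher after DSS in ΔNFκB than in WT mice by 1.26 ± 0.21 (adjusted p 0.00668), a call lost without ΔNFκB DSS replicate 2 (0.99, adjusted p 0.0714).

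In the type I interferon signature, 15 of 17 genes were higher with DSS in ΔNFκB mice, against 16.2% of all genes, and 3 of 17 in WT mice, a share near the 17.2% of all genes. None was lower in either genotype. The signature summed to 747 and 1268 CPM in ΔNFκB DSS and 470 and 446 CPM in WT DSS libraries, against 263 and 303 CPM in ΔNFκB untreated and 284 and 611 CPM in WT untreated libraries, so WT untreated replicate 2 lay above both WT DSS libraries. Without that library 5 of the 17 were higher in WT mice, and without WT untreated replicate 1 the count was 0, with 1 lower. It was 1 without WT DSS replicate 1, 0 without WT DSS replicate 2 and 2 without either ΔNFκB untreated library. The ΔNFκB count was 9 without ΔNFκB DSS replicate 2, 10 without ΔNFκB untreated replicate 1 and 12 to 17 without any other library. The difference between responses passed for 8 of 17 (8.63% of all genes), a count that ranged from 1 to 11 with 1 library left out and was 3 without WT untreated replicate 2. Oasl2, an antiviral protein, was among these at 3.02 ± 0.44 (adjusted p 0.00809) and kept its call when any 1 library was left out (2.48 to 3.43). These counts without single libraries were added after the data had been seen.

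**Figure D4:**
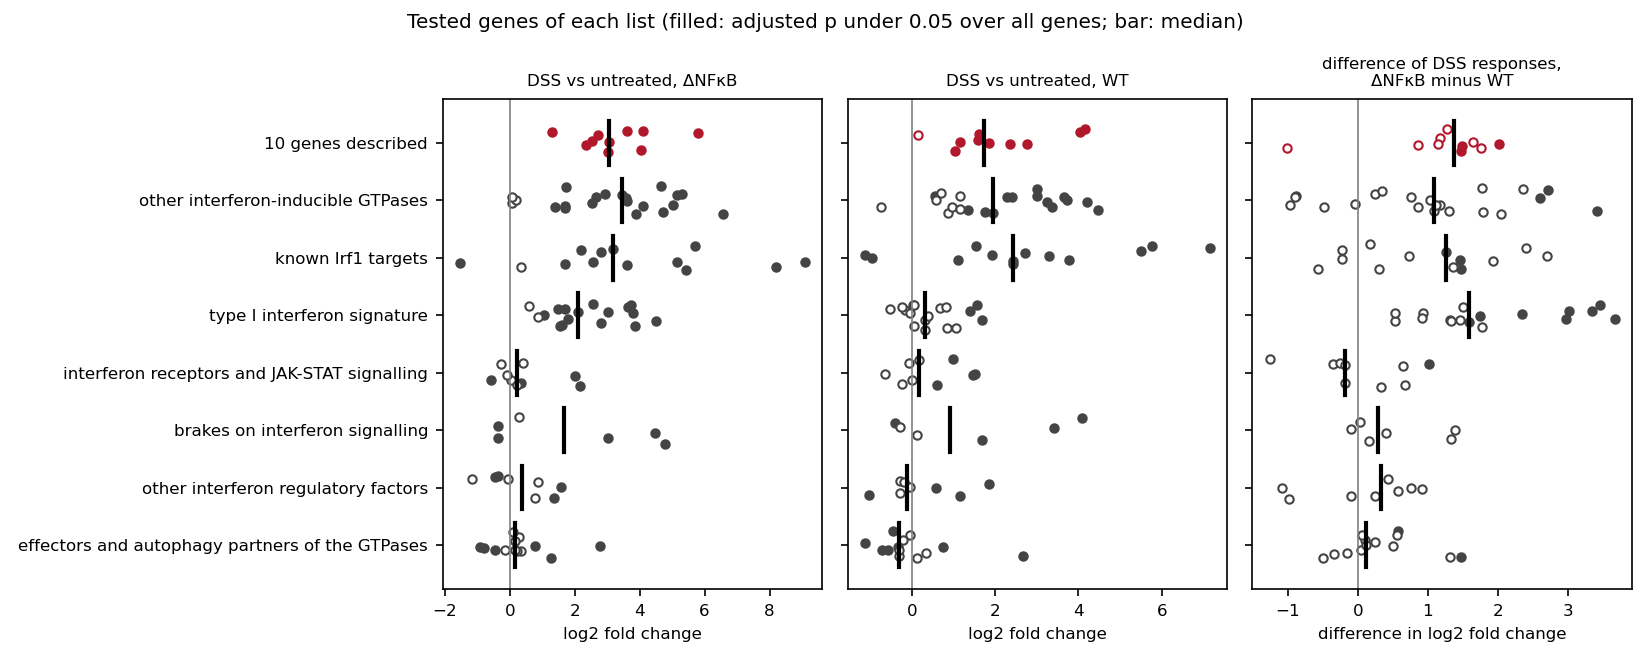
Log2 fold changes of the tested genes of each list in the ΔNFκB DSS response, the WT DSS response and their difference, with 1 point for each gene, filled where the adjusted p was below 0.05, and a bar at the list's median. The other GTPases (medians 3.45 and 1.94) and the Irf1 targets lie on the side of the 10 genes (3.04 and 1.73), while the receptor, regulatory factor and effector lists lie near 0.

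The remaining lists held calls in both directions, as did all genes tested (16.2% higher and 19.2% lower in ΔNFκB, 17.2% and 18.8% in WT mice), and with 5 to 13 genes each their counts are a description. Among brakes on interferon signalling 3 of 6 were higher and 2 lower in ΔNFκB and 3 higher and 1 lower in WT mice. Other interferon regulatory factors had 2 of 8 higher and 2 lower in ΔNFκB and 3 higher and 1 lower in WT mice; Irf8, a factor of myeloid cells, rose by 1.59 ± 0.15 in ΔNFκB and 1.16 ± 0.15 in WT mice (adjusted p 0.000332 and 0.00123). Effectors and autophagy partners of the GTPases had 3 of 13 higher and 3 lower in ΔNFκB mice and 2 higher and 5 lower in WT mice. Of the 9 genes for interferon gamma and its upstream signals 5 could be tested, with 1 higher and 1 lower in ΔNFκB and 2 higher and 2 lower in WT mice. None of these lists held a gene called between genotypes without DSS.

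Marker sums also changed with DSS itself, where 16.2% of all genes were called higher and 19.2% lower in ΔNFκB mice. In WT mice these shares were 17.2% and 18.8%. T and NK cell markers summed to 21.3 to 24.1 CPM in ΔNFκB DSS, against 3.90 CPM in replicate 2 and 28.7 CPM in replicate 1 of ΔNFκB untreated mice, and to 25.8 to 32.0 CPM in WT DSS, against 5.11 to 7.18 CPM in WT untreated libraries. Neutrophil markers other than Ly6g, left out after its counts were seen to be high without DSS, summed to 75.7 to 76.7 CPM in ΔNFκB DSS and 296 to 390 CPM in WT DSS mice, against 1.46 to 8.91 CPM in ΔNFκB untreated and 2.08 to 2.21 CPM in WT untreated mice. Smooth muscle markers summed to 849 to 863 CPM in ΔNFκB DSS and 991 to 1239 CPM in WT DSS mice, against 5348 to 5506 CPM in ΔNFκB untreated and 3412 to 6621 CPM in WT untreated mice, and all 6 were lower with DSS in both genotypes. Epithelial markers summed to 13722 to 14583 CPM in ΔNFκB DSS, against 13983 to 15853 CPM in ΔNFκB untreated libraries, with 1 of 10 higher and 1 lower, and to 8392 to 8760 CPM in WT DSS, against 16167 to 21280 CPM in WT untreated libraries, with 8 of 10 lower. Endothelial markers summed to 27.5 to 38.4 CPM in ΔNFκB DSS, against 93.1 to 117 CPM in ΔNFκB untreated libraries, with 5 of 6 lower, and to 123 to 162 CPM in WT DSS, against 89.5 to 119 CPM in WT untreated libraries, with 3 higher and 2 lower. The part of these shifts in the DSS responses of the 10 genes was not tested.

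Of 11 protein-coding genes next to the 10 on the chromosome, outside the GTPase families, 8 could be tested. With DSS 1 was higher and 0 lower in ΔNFκB mice (16.2% and 19.2% of all genes), and 3 were higher and 1 lower in WT mice (17.2% and 18.8% of all genes). The medians of the 8 were 0.09 in ΔNFκB and 0.59 in WT mice, against 3.04 and 1.73 for the 10 genes. After DSS 0 were higher and 1 was lower in ΔNFκB than in WT mice (8.32% and 11.7% of all genes).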

How the data were processed

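Total RNA libraries (Illumina TruSeq Total RNA kit, paired reads, HiSeqX, per the labels' protocols) of 8 mice were aligned and counted by the authors. HISAT2 2.1, SAMtools 1.8, featureCounts from Subread 1.6.2 and the mm10 genome are named, per the submitters' processing notes. The deposited values are expected counts per gene, not normalized, of which 18.8% of those above 0 have decimals. How strand and multiply matching reads were handled, and which annotation release was used, is not stated in these sources. Of the 55536 lines, 115 symbols stood on several lines and were summed, and values were rounded to whole numbers.

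Genes were filtered with filterByExpr, which kept 17522 of 30454 genes with a count, and scaled with TMM factors (0.882 to 1.15). CPM use these factors. One edgeR 4.0.16 quasi-likelihood fit of 4 group means over the 8 libraries (4 residual degrees of freedom, R 4.3.3) was used for two-sided tests, log2 fold changes and Benjamini-Hochberg adjusted p over all genes, with a threshold of 0.05. Every adjusted p in the text comes from it unless another setting is named. Each SE was obtained as |log2 fold change| over the root of its F statistic. Groups hold 2 mice, and the labels do not say whether mice shared a litter or cage, so the p-values measure the spread between these samples, and they rest on a spread pooled over groups and genes (biological coefficient of variation 17.1%). Counting precision is best for the GTPase genes after DSS, whose counts are higher there, and poorest for untreated Ifi47. The floor used for Ifng covers counting error of the untreated group only. Levels per kilobase use exon bases of GENCODE M21 (GRCm38). Promoter windows and their letters come from RefSeq (GRCm38.p6).

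The 10 genes, the gene lists and the promoter motifs were chosen with earlier results of these data known. All 10 genes are named in every comparison. From each list up to 3 tested genes with the smallest p are candidates for naming, with Ifng, Socs1 and Irf2 throughout, and the 5 genes most alike to the mean of the 10; values of a gene in a second comparison stand beside the one it was named for. A few genes that meet this rule are left out of the text. Alternatives were RLE factors, DESeq2 1.42.0, limma-voom (limma 3.58.1), no count filter, a CPM filter of 1 in 2 libraries, the replicate number as a block, only the 2 groups compared, a sex term, a fit without genes of antigen receptors, mitochondria and ribosomal RNA (13.2% to 19.1% of counts), and each library left out in turn, its lone partner then being assumed to vary like the other groups. The fit was also run on simulated counts. These had the same biological coefficient of variation for every gene, and no sex difference or outlying library. That run does not check the calls under the conditions of these data. Sex was read from Y-linked transcripts, with a limit of 5 CPM.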

Additional observations from a re-analysis of the deposited data

Results flagged for a closer look

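The DSS response differed between genotypes by a test of the difference itself for 3 of the 10 genes, where 8.63% of all genes passed in that direction. The log2 response was larger in ΔNFκB than in WT mice by 2.01 for Gbp2, which was at 226 and 392 CPM in ΔNFκB DSS and 104 and 144 CPM in WT DSS libraries, and without DSS at 24.2 and 26.3 CPM in ΔNFκB and 34.6 and 46.9 CPM in WT libraries. It was larger by 1.49 for Irgm1 and by 1.47 for Irgm2, both regulators of the immunity-related GTPases. The calls of Irgm1 and Irgm2 were lost when any library other than ΔNFκB DSS replicate 1 was left out, by limma-voom (adjusted p 0.0668 and 0.0604) and with a sex term (adjusted p 0.0798 and 0.0531), and that of Gbp2 without ΔNFκB DSS replicate 2 or ΔNFκB untreated replicate 1. Untreated pairs of Gbp2, Irgm1 and Irgm2 did not overlap between genotypes either, with the ΔNFκB pair lower, as in 22.7% of all genes. These untreated differences enter the 3 estimates and did not pass the test. They were -0.69 for Gbp2, -0.23 for Irgm1 and -0.33 for Irgm2 (edgeR adjusted p 0.285, 0.765 and 0.608). Both untreated ΔNFκB mice and WT untreated replicate 2 were male. Groups of 2 mice allow no test for an outlying library.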

How the results depend on the processing

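Of the values of single members recomputed under all alternatives, 814 kept direction and side of the threshold, 48 lost the call, 20 gained it and 8 changed sign; among other named genes these counts were 2977, 266, 84 and 6. The cause of each change was not tested. With 1 library left out, members called ranged from 9 to 10 in the ΔNFκB DSS response, 7 to 9 in the WT DSS response, 0 to 5 between genotypes after DSS and 0 to 4 in the difference of responses. Without a count filter 8 members were called between genotypes after DSS and 7 in the difference, which was 6 with DESeq2 and 1 with limma-voom. All genes called in these comparisons under these settings, or with the replicate block below, are not given. The member counts are therefore a description only. All genes called ranged, with 1 library left out, from 3373 to 6548 in the ΔNFκB DSS response, 3298 to 6228 in the WT DSS response, 484 to 3781 between genotypes after DSS, 0 to 200 without DSS and 489 to 3669 in the difference. A sex term gave 3343 in the ΔNFκB DSS response, against 6199. Between genotypes without DSS, where 68 genes were called, the count was 264 with DESeq2, 330 without a count filter, 176 with a sex term, 0 with only the 2 groups compared, 0 with the replicate block and 6 with a crossed replicate block chosen after seeing the data. With the replicate block, members called were 10, 9, 7, 0 and 4 in the order of the report's comparisons (ΔNFκB DSS response, WT DSS response, genotypes after DSS, genotypes without DSS, difference), against 10, 9, 5, 0 and 3; Iigp1 and Irf1 were the genes added after DSS. The labels state no shared origin for a number, and deviations of same-numbered mice from their group means correlated at -0.126 to 0.244 between groups.

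Signs changed for small differences. With 1 library left out the ranges were -0.10 to 0.51 for Irf1 in the WT DSS response, -0.56 to 0.11 for Gbp3, -0.11 to 0.29 for Gbp5 and -1.05 to 0.54 for Ifi47 between untreated genotypes, -0.029 to 0.18 for Irf2 between genotypes after DSS, -0.20 to 0.027 for Irf2 and -0.054 to 0.76 for Socs1 in the difference, and -0.75 to 3.43 for Nkg7 in the ΔNFκB DSS response. Ifi47 without DSS was 0.057 with the replicate block and Il18 in the ΔNFκB DSS response 0.11 with a sex term, against -0.63. Groups of 2 mice, DSS libraries shallower than untreated ones and the uneven sexes limit what the values can separate.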
